A study of Caenorhabditis elegans with 4 samples.

Results

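Chromosome II of Caenorhabditis elegans carried 377 of the 2299 binding regions (peaks) in the deposited combined list of NHR-2 in embryos. They were chosen by position alone, as every peak that the list places on chromosome II. The same chromosome held 4419 of the 29379 peaks of ChIP replicate 1 and 3625 of the 24151 peaks of ChIP replicate 2, and these longer lists were used for rank and for weaker peaks.

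NHR-2 is a nuclear hormone receptor, a class of transcription factors that bind DNA through a pair of zinc fingers and often respond to small lipophilic ligands. The family is much enlarged in nematodes, and nhr-2 is known for a role in early embryonic development. Worm chromosomes have no single centromere. Their central parts recombine rarely and are rich in essential genes, whereas the arms recombine more and hold more repeats.

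All libraries came from strain OP99, in mixed male and hermaphrodite embryo populations grown at 20 °C. The strain carries the unc119(ed3) mutation and the transgene wgIs99, brought in by bombardment. The transgene holds nhr-2 joined to TY1, EGFP and FLAG tags, and unc119 as its rescue marker, so the tagged receptor was made from this added copy. After crosslinking in 2% formaldehyde, tagged NHR-2 was pulled down with anti-GFP antibody from 2 samples (the ChIP group, replicates 1 and 2), and a portion of each lysate gave the 2 input samples. The deposited lists hold no values of the input samples, and no label states that the replicates were grown apart, so differences between them may be technical. In the RefSeq gene table of WBcel235, nhr-2 lies on chromosome I and unc-119 on chromosome III, so neither gene of the transgene has its own locus on chromosome II. Where the transgene integrated is not stated.

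Each peak has a number and a score with a ceiling, both as deposited by the authors. The number is taken here as 1 for the strongest. A peak number is also called a rank here, and pairs of ranks are given as replicate 1, then replicate 2. On chromosome II, 272 of the 377 combined peaks (72.1%) sat at the ceiling of 3.54, against 75.6% over all chromosomes, so the number gives the order and the score does not. Below the ceiling the score did not always fall as the number rose. Combined peak 1738 scored 3.07 and combined peak 1829 scored 3.09. The median combined number was 1222 on chromosome II and 1150 over the whole list. Read depth is unknown, and positions are those of the WormBase WS220 build. Peaks were not assigned to genes, exons, introns or UTRs, and no sequence is shown, because no genome or annotation of that build was at hand.

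The strongest NHR-2 regions of chromosome II had low numbers in both libraries. These regions were picked by the combined list, which comes from the same series, so their ranks are no independent repeat. The first was combined peak 12, at positions 7813179 to 7813606, which ranked 18 in replicate 1 and 8 in replicate 2, where the rank is that of the strongest overlapping peak. The next was combined peak 13 at 12978554 to 12979010, which ranked 10 and 15 in the 2 libraries. Combined peak 15 at 4577416 to 4577774 ranked 17 and 14. These 3 regions lie far apart, 1 near the midpoint of the chromosome, 1 in the right arm and 1 near the left edge of the middle 50%. Each was also the strongest peak of a dense cluster. The arms are taken here as the outer 25% of the length at each end.

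Combined peak 16 at 10549264 to 10549738 was peak 13 of the first library and peak 23 of the second. Combined peak 26 at 1246853 to 1247173 ranked 29 and 31. It was the single peak numbered up to 100 in the left arm, and it had no other combined peak within 10 kb. The middle 50% held 16 peaks numbered up to 100 and the right arm 3.

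The next of chromosome II in strength were combined peaks 28 at 12985647 to 12986237, 29 at 7810738 to 7811108, 38 at 6939769 to 6940159, 48 at 5463666 to 5464028 and 55 at 7814172 to 7814518. In replicate 1 they ranked from 26 to 48, and in replicate 2 from 37 to 131. The value of 131 belonged to peak 55, which was peak 34 in replicate 1. Of the 10 strongest peaks, 8 stood in clusters of at least 5 peaks. The share was lower further down, with 18 of the 50 strongest (36%) and 11 of the 50 weakest (22%). Over all combined peaks of chromosome II it was 27.3%, against 20.1% over all chromosomes. The 10 strongest fell into 7 groups of neighbouring peaks, with 3 of them in the cluster around peak 12.

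Strong peaks also had a different interval width. None of the 20 chromosome II peaks numbered up to 100 had the standard width of 450 bp, and they spanned 321 to 591 bp. Among numbers 101 to 500, 9 of 62 peaks (14.5%) had it and 52 were narrower, down to 117 bp. Among numbers 1001 to 2299 it was 219 of 225 (97.3%). Width here follows the authors' peak caller and was not read as the extent of binding. Widths were counted on chromosome II only, so they do not set it apart from the rest of the list.

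**Figure D1:**
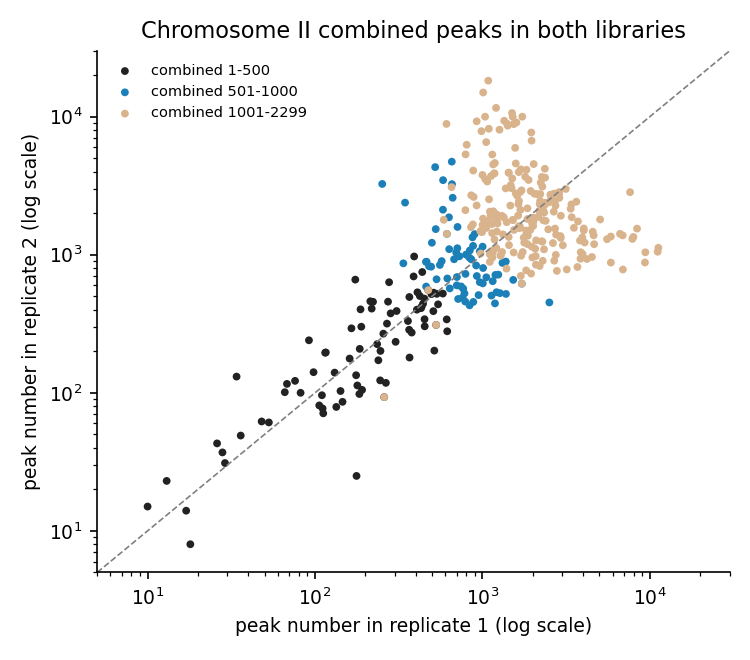
Peak numbers of the 372 chromosome II combined peaks matched in both libraries, replicate 1 on the x axis and replicate 2 on the y axis, both on log scales; each point is a combined peak, coloured by its combined number, and the dashed line marks equal numbers. Of the 82 points of combined numbers 1 to 500, 67 lie within 2-fold of the line of equal numbers. Among these 82, 1, combined peak 70, is more than 5-fold off. Those of 1001 to 2299 spread widely, with 29 of 220 more than 5-fold off. Combined numbers come from the same series as the replicate ranks, so this contrast may be set by construction.

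Both libraries contained nearly every combined peak of chromosome II. Replicate 1 overlapped 375 of the 377 by at least 1 bp (99.5%, exact Clopper-Pearson 95% interval 98.1 to 99.9%), against 99.8% over all chromosomes. Replicate 2 overlapped 374 (99.2%, 97.7 to 99.8%), against 99.1% over all. Both did for 372 peaks (98.7%, 96.9 to 99.6%), against 98.9% over all, a share that lies inside the interval of chromosome II. These intervals hold for counting error alone and as if peaks were independent, and neighbouring peaks are not. The combined list comes from the same series, so these counts say what was kept and are no independent repeat.

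The median rank of the best matching peak was 1147 for replicate 1 and 1204.5 for replicate 2. Matches within number 5000 of both lists were found for 333 peaks (88.3%, 84.7 to 91.4%), against 90.4% over all chromosomes. The match lay beyond number 5000 of replicate 1 for 15 of 375 peaks, against 2.22% over all chromosomes (51 of 2294). In replicate 2 it did for 24 of 374 (6.42%), against 6.41% over all. For 232 of the 372 peaks seen in both (62.4%) the numbers in the 2 libraries were within 2-fold of each other, and for 36 they were more than 5-fold apart. For these 2 counts no share over all chromosomes is given. The number was lower in replicate 1 for 188 peaks and in replicate 2 for 183. Numbers are ranks within each list, so this cannot show whether 1 library had the stronger signal. Spearman's rho between the 2 ranks was 0.56, and on their log10 scale Pearson's r was 0.71. These describe 372 peaks that share 2 libraries and were selected through the combined list, and some neighbours share a match.

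Matched positions were close. The centres of the matching replicate peaks lay a median of 32.75 bp apart, and 314 of 372 (84.4%) were within 100 bp. Here too, no share over all chromosomes is given. For the 50 strongest chromosome II peaks the median was 10.75 bp. Some combined peaks matched the same replicate peak. In replicate 1, 18 combined peaks shared their best match with a neighbour, and in replicate 2 it was 20. Where combined intervals overlapped, merging left 367 regions.

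The peaks that differed most between libraries were in the weaker part of the combined list, with 1 exception among the 4 most different. Combined peak 1960 at 14919205 to 14919654 ranked 1083 in replicate 1 against 18218 in replicate 2, a 16.8-fold difference in number. Combined peak 1958 at 8897117 to 8897566 was peak 1010 and peak 14954, and combined peak 1612 at 10784665 to 10785114 was peak 610 and peak 8856. The replicate 2 matches of combined peaks 1960 and 1612 were centred at -407 and -287 bp from them. For these, overlap by at least 1 bp may have paired different peaks. The exception was combined peak 576 at 4986767 to 4987025, which ranked 252 in replicate 1 against 3254 in replicate 2. In the other direction, combined peak 1842 at 10387940 to 10388389 ranked 9345 in replicate 1 against 878 in replicate 2. These cases were picked for their difference, after the values were seen. Combined numbers come from the same series as the replicate ranks. That large differences stood mostly in the weaker part may therefore be set by construction.

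For 5 combined peaks 1 library had no overlapping peak. Replicate 2 lacked combined peaks 1407 (6394169 to 6394618), 1697 (13030699 to 13031148) and 2139 (3008336 to 3008785), which were peaks 1047, 834 and 1524 of replicate 1. Its nearest peaks were 3004, 326 and 6202 bp away. Replicate 1 lacked combined peaks 2151 (5691287 to 5691736) and 2282 (12225023 to 12225472), which were peaks 1371 and 1033 of replicate 2, and its nearest peaks were 1906 and 1970 bp away. With depth unknown, a missing peak cannot be called an unbound region.

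Strong replicate peaks of chromosome II that the combined list does not hold were found below the very top. All 82 chromosome II peaks numbered up to 500 in replicate 1 and all 77 in replicate 2 overlapped a combined peak. No share over all chromosomes is given for this class, so it does not set chromosome II apart. Of the 348 replicate 1 peaks numbered up to 2299, 303 did (87.1%, 83.1 to 90.4%), against 83.5% over all nuclear chromosomes. Of the 366 in replicate 2, 287 did (78.4%, 73.8 to 82.5%), against 79.2% over all. Among the 45 left out in replicate 1, 13 (28.9%) overlapped no replicate 2 peak of any strength, against 35% over all nuclear chromosomes. Among the 79 left out in replicate 2, 22 (27.8%) overlapped no replicate 1 peak, against 24.2% over all.

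The strongest of those left out in replicate 1 was peak 785 at 11238909 to 11239308, at the score ceiling of that list and with no overlap in replicate 2. It was followed by peak 1160 (14186849 to 14187248), peak 1184 (7104934 to 7105333) and peak 1285 (11874561 to 11874960), which also had none, while peak 1273 (3055584 to 3055983) overlapped replicate 2 peak 10148. In replicate 2 the strongest left out was peak 1083 at 3309571 to 3310040, which overlapped replicate 1 peak 3902. Peaks 1152 (15004227 to 15004696), 1156 (10099602 to 10100071) and 1161 (12671853 to 12672322) overlapped replicate 1 peaks 10562, 12560 and 23257, and peak 1211 (12099431 to 12099900) overlapped none. Each of these 10 left-out peaks was thus matched beyond number 2299 of the other list, or not at all. Over the full lists, 42.9% of replicate 1 peaks on chromosome II (41.4 to 44.4%) overlapped a replicate 2 peak, against 42.3% over all nuclear chromosomes, and 53.2% of replicate 2 peaks (51.6 to 54.8%) overlapped a replicate 1 peak, against 51.9%.

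In peak density chromosome II was a middling chromosome. It held 24.7 combined peaks per Mb, counted up to position 15274473, the end of its last deposited peak in any list, and 22.9 per Mb were found over all nuclear chromosomes. It held 16.4% of the combined peaks (14.9 to 18.0%) and 15.2% of the nuclear length. Chromosomes I (26.8 per Mb) and III (27.4 per Mb) were the closest to it, and X (29.7), IV (17.7) and V (14.5) lay further away. The strongest 2299 peaks of each library gave 15.7% ± 0.57 (SD, n = 2) on chromosome II. These differences between chromosomes were not tested.

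Peaks on chromosome II were unevenly spread between its ends. The middle 50% held 225 peaks (59.7%, 54.5 to 64.7%), against 56.8% over all chromosomes. The left arm held 52 peaks (13.8%, 10.5 to 17.7%) and the right arm 100 (26.5%, 22.1 to 31.3%). In density this was 13.6 per Mb on the left, 29.5 in the middle and 26.2 on the right. The right arm was thus close to the middle in density, and it held 1.92 times as many peaks as the left arm.

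Both libraries had the same order of left and right. Among peaks numbered up to 2299, replicate 1 had 55 in the left arm and 92 in the right, and replicate 2 had 51 and 110, ratios of 1.67 and 2.16. On the other chromosomes the right to left ratio in the combined list was 1.09 on III, 0.58 on IV, 0.59 on V and 0.87 on X, and on I both arms held 87 peaks. Chromosome II therefore had the highest ratio of the 6 in the combined list. The same held in each replicate's strongest 2299. There the next highest were 1.02 on I in replicate 1 and 1.26 on III in replicate 2. On IV and V the arms were uneven in the other direction. In the combined list IV had 91 peaks in the left arm and 53 in the right, and V had 73 and 43. This ranking thus reflects the direction of the imbalance as well as its size. Each ratio is a single value per list, and no test of the difference was made. All these ratios use the same definition of the arms, and no other arm borders were tried for them.

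**Figure D2:**
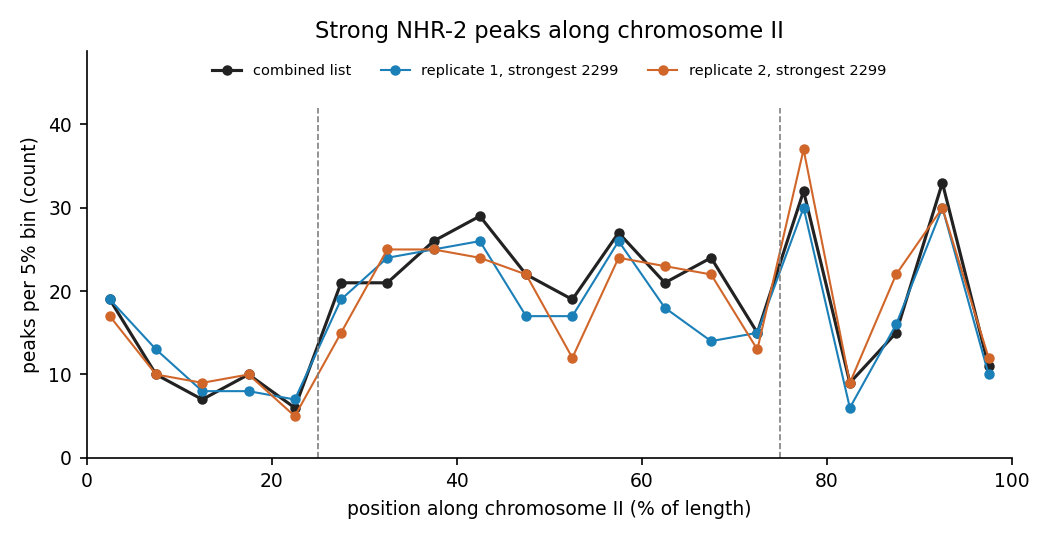
Number of peaks in bins of 5% of the length of chromosome II (x axis, left end at 0%), for the combined list and for the strongest 2299 peaks of each replicate; dashed lines mark the borders of the arms. Every list has 5 to 13 peaks in each bin from 5 to 25% of the length, 17 to 19 in the first bin, and its highest count in the right arm at 75 to 80% or 90 to 95%.

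The left arm was not evenly poor. The first 1 Mb held 24 combined peaks, whereas positions 1000001 to 4000000 held 33, or 11.0 per Mb. From 4000001 to 12000000 there were 249, or 31.1 per Mb. Replicate 1 gave 26 peaks numbered up to 2299 in the first 1 Mb and 11.3 per Mb in the poor stretch, and replicate 2 gave 22 and 10.7 per Mb. The change at about 4 Mb was sharp in all 3 lists, from 12 combined peaks in the fourth 1 Mb bin to 31 in the fifth. In the right arm the counts alternated, with 32 combined peaks between 75 and 80% of the length, 9 in the next 5% and 33 between 90 and 95%.

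The low share of the left arm was seen for strong peaks and faded for weak ones. In replicate 1 the left arm held 7.32% of the 82 chromosome II peaks numbered 1 to 500, 12.3% of those numbered 501 to 1000 and 24.6% of the 2870 beyond number 10000. In replicate 2 these shares were 7.79% of 77 peaks, 12 of 75 peaks and 23.7% of 2076. For numbers 1001 to 2299 the share was 20.7% of 193 peaks in replicate 1 and 15.4% of 214 in replicate 2. The libraries thus differed in where the low share faded. Each arm as taken here makes up 25% of the length. The weakest peaks thus lay in the left arm about as often as its length, in both libraries. No shares over all chromosomes are given for these classes, so they do not set chromosome II apart.

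The middle 50% showed the opposite course. It held 70.7% (59.6 to 80.3%) of replicate 1 peaks numbered 1 to 500 and 46.2% (44.3 to 48.0%) of those beyond 10000. In replicate 2 it held 68.8% (57.3 to 78.9%) and 42.1% (39.9 to 44.2%). The right arm changed less, with 22.0 and 29.2% for replicate 1, and 23.4 and 34.2% for replicate 2. For the middle and the right arm, too, no shares over all chromosomes are given by class. In the poor stretch from 1000001 to 4000000, the full lists had 246.7 peaks per Mb in replicate 1 and 184.3 in replicate 2, against 289.2 and 222.0 per Mb from 4000001 to 12000000.

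**Figure D3:**
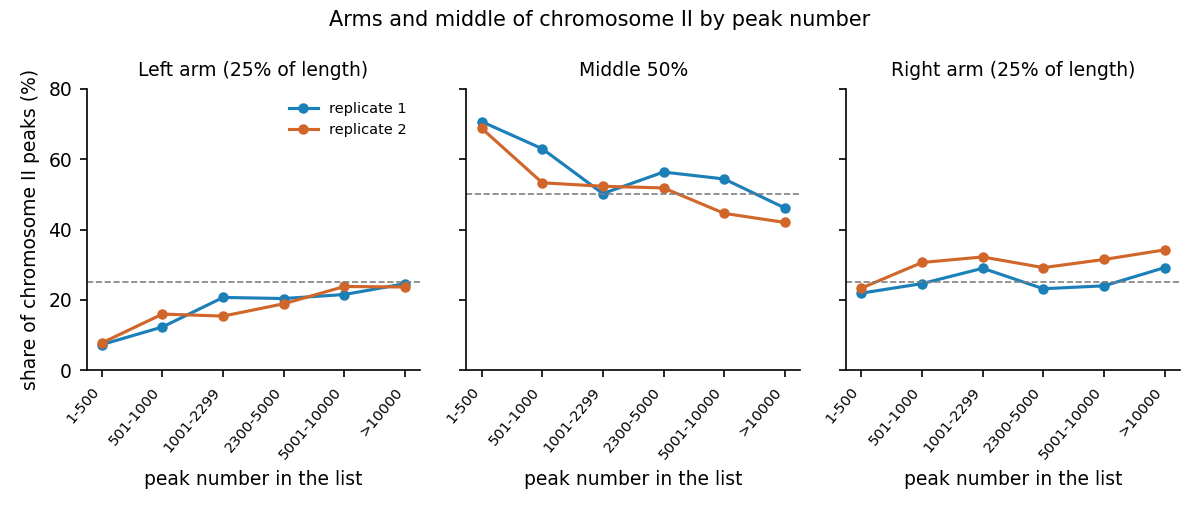
Share of the chromosome II peaks of each replicate list that lie in the left arm, the middle 50% and the right arm (y axes, %), by class of peak number (x axes, strong to weak); dashed lines mark the share of the length. From the strongest to the weakest class the left arm rises from 7.32 to 24.6% (replicate 1) or 7.79 to 23.7% (replicate 2). The middle 50% falls from 70.7 to 46.2% or 68.8 to 42.1%. Other chromosomes are not shown.

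Combined peaks of chromosome II often stood in groups. With centres within 10 kb of the next taken as 1 cluster, the 377 peaks formed 206 clusters, of which 130 were single peaks and 44 were pairs. Clusters of at least 3 held 159 peaks (42.2%, 37.2 to 47.3%), against 41.1% over all chromosomes. Clusters of at least 5 held 103 peaks (27.3%), against 20.1% over all, a difference that was not tested. There were 15 of these larger clusters, together 240.6 kb or 1.57% of the length. The median distance between neighbouring centres was 16227 bp, and 79 of the 376 distances (21.0%) were at most 2 kb.

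Grouping went with strength and with position. Of the combined peaks numbered 1 to 500, 57.3% stood in clusters of at least 3. The share was 47.1% for numbers 501 to 1000 and 35.1% for numbers 1001 to 2299. Single peaks had a median number of 1521.5 and peaks in clusters of at least 5 a median of 1008. For these classes and medians no values over all chromosomes are given, so they do not set chromosome II apart. The left arm had no cluster above 3 peaks and 33 of its 52 peaks (63.5%) were single, against 65 of 225 (28.9%) in the middle and 32 of 100 (32.0%) in the right arm. Of the 15 larger clusters, 9 lay in the middle 50% and 6 in the right arm. Where peaks are fewer, fewer of them fall within 10 kb of each other, so density and clustering cannot be told apart here.

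The cluster with the most peaks, 11, spanned 6823357 to 6853434, and its peaks were mostly of middle strength. The strongest was combined peak 148 at 6831539 to 6831804, which ranked 259 and 93 in the libraries. The overlapping combined peak 1357 shared both of these matches, so the cluster counts 10 regions after merging. The replicates had 36 and 28 peaks of any strength in this span, of which 10 and 8 were numbered up to 2299.

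The cluster around combined peak 12 held the strongest peak of the chromosome and had the lowest median number of the 15. It spanned 10.2 kb, from 7809536 to 7819696, and held 8 peaks with a median number of 262. Combined peak 29 stood 2.47 kb to the left of peak 12, and combined peaks 55 and 61 stood 0.95 and 2.17 kb to its right. Peak 61 ranked 53 and 61. To the left of the cluster lay a stretch of 238.4 kb that was empty in the combined list, in which the replicates had 50 and 37 peaks.

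The cluster around combined peak 13 spanned 12978554 to 12993361 with 7 peaks, all at the score ceiling. Its strongest peaks, 13 and 28, were 7.16 kb apart, and the former marked the left end. The cluster around combined peak 15 had 9 peaks from 4565627 to 4585762, also all at the ceiling, and peak 15 stood inside it, with peak 139 at 2.60 kb to its right. The cluster with combined peak 16, from 10547782 to 10563973, had 6 peaks with a weakest number of 2295. The cluster with combined peak 38 spanned 6926042 to 6951951 and held 7 peaks.

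The remaining clusters held none of the 10 strongest peaks of the chromosome. The 9 peaks from 13829002 to 13857043 had numbers of 708 to 2027, and its strongest, combined peak 708, ranked 677 and 927. In the 8 peaks from 14426181 to 14441485 the strongest was combined peak 250, which ranked 303 and 234. The 7 peaks from 4969742 to 4987025 were led by combined peak 136 and the 6 peaks from 8890739 to 8903282 by combined peak 591. The clusters of 5 peaks were led by combined peaks 70 (6409034 to 6418389), 246 (5732213 to 5745446), 266 (11632626 to 11637352), 293 (11535464 to 11547794) and 315 (11880390 to 11890845). Of the 15 larger clusters, the one led by peak 70 is the single one that falls below 5, to 4 regions, when overlapping intervals are merged. The one led by peak 266 was the tightest, with 5 peaks in 4.73 kb. Combined peak 70 differed between libraries, where it ranked 177 and 25, and this cluster also held combined peak 86.

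Most spans of the larger clusters also held several strong peaks in each library taken alone. The spans were picked by combined peaks of the same series, so this is no independent repeat. Peaks touching each span were counted, and clusters were not formed anew for this count. No share over the clusters of all chromosomes is given. At least 5 peaks numbered up to 2299 touched the span in replicate 1 for 12 of the 15 clusters, in replicate 2 for 11, and in both for 9. The 15 spans together held 93 such peaks in replicate 1 and 83 in replicate 2.

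**Figure D4:**
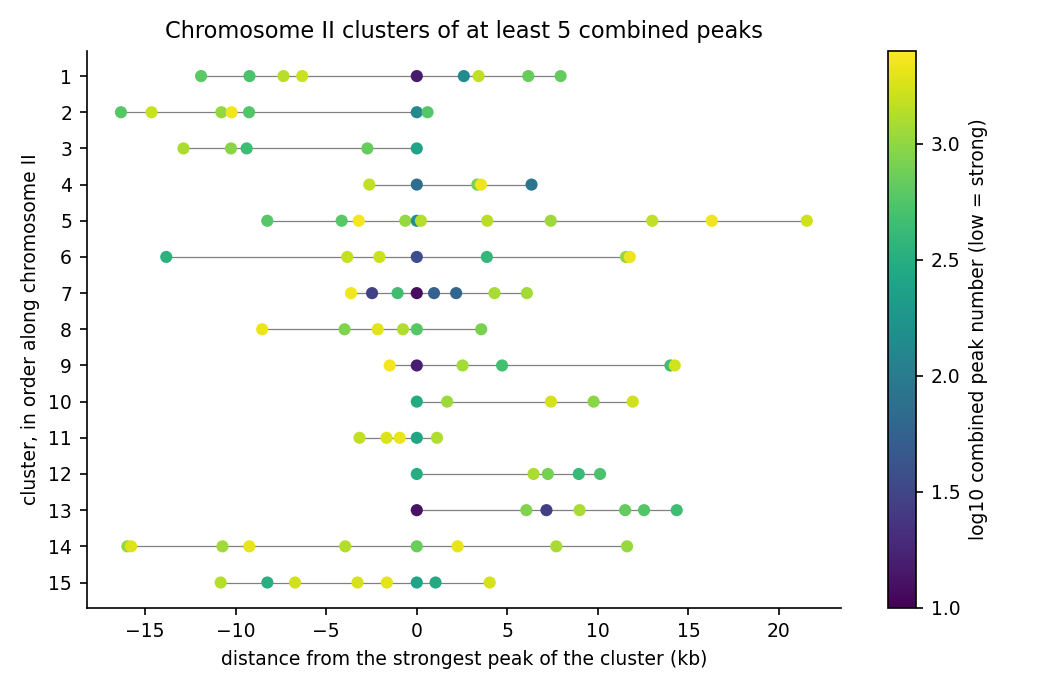
The 15 chromosome II clusters of at least 5 combined peaks, 1 per row in order along the chromosome; each point is a peak at its distance in kb from the strongest peak of its cluster (x axis), coloured by the log10 of its combined peak number, dark for strong. Rows 1, 7, 9 and 13 hold the darkest points, combined peaks 15, 12, 16 and 13, and row 5 is the widest, with 11 peaks over 30.1 kb.

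Long stretches of chromosome II had no combined peak. Between its first peak, which starts at 1274, and its last, which ends at 15263380, 12 stretches were at least 200 kb long, together 3.29 Mb or 21.5% of the length. Of these 12, 6 were centred in the left arm, 3 in the middle 50% and 3 in the right arm. The longest empty stretch, 389.2 kb, was shorter than those of chromosomes I (475.2 kb), IV (581.2 kb) and V (1565 kb) and longer than those of III (223.2 kb) and X (228.8 kb). The median distance between neighbouring combined intervals that do not overlap was 17.3 kb.

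The longest stretch ran from 1325644 to 1714825. It held 88 peaks of replicate 1, the strongest of them peak 2411, and 63 of replicate 2, the strongest of them peak 1514. That replicate 2 peak, at 1502061 to 1502530, overlapped replicate 1 peak 3625. The next, from 1784763 to 2091947, held 43 and 30 replicate peaks, 140.0 and 97.7 per Mb, the lowest densities of the 12 in both libraries. The third longest, 302.3 kb from 9317134 to 9619396, lay in the middle 50% and began right after combined peak 103. It held 55 and 42 replicate peaks, with peak 1908 of replicate 1 and peak 1699 of replicate 2 as the strongest. The fourth, 3008786 to 3291156, began right after combined peak 2139, which replicate 2 lacked. The fifth, 3377110 to 3658799, had no peak stronger than 2843 in replicate 1 and 4972 in replicate 2, the weakest best peak of replicate 2 among the 12.

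Stretches empty in the combined list held many weaker replicate peaks. Over the 12 stretches the replicates had 221.5 and 188.4 peaks per Mb. Outside the combined intervals, the whole chromosome had 262.4 and 209.3 peaks per Mb that overlap no combined peak, which is the like measure. The difference was not tested. In replicate 1, 5 of the 729 peaks inside them were numbered up to 2299, and in replicate 2 it was 12 of 620. In 2 stretches both libraries were above this measure. The one from 13462280 to 13736824 had 309.6 and 327.8 peaks per Mb, and the one from 960666 to 1236445 had 304.6 and 239.3. Only peaks missing from the combined list can lie inside such a stretch, which sets the low count of strong ones by construction.

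**Figure D5:**
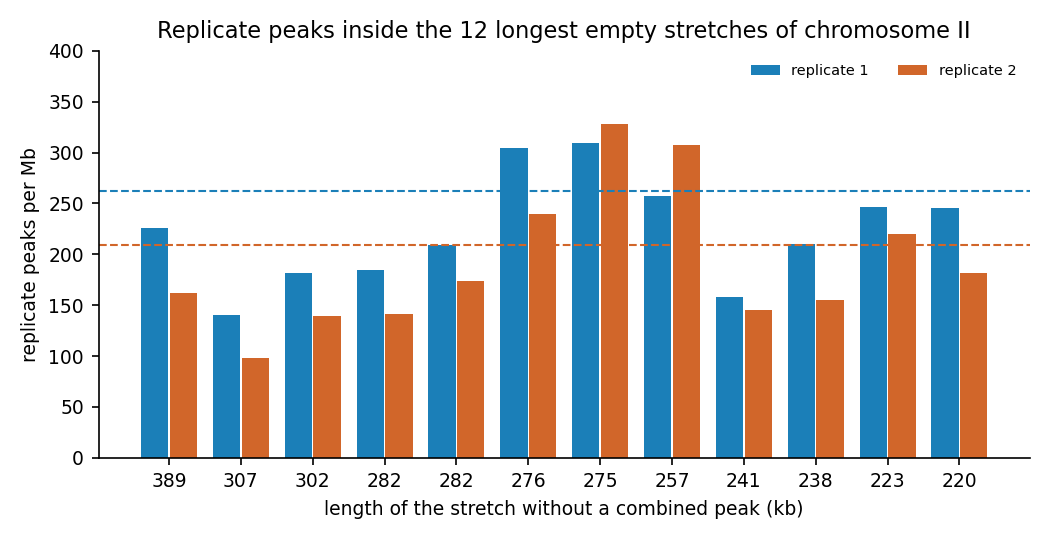
Replicate peaks per Mb (y axis, bars from 0) inside the 12 longest stretches of chromosome II without a combined peak, ordered and labelled by length in kb (x axis); dashed lines are the densities over the whole chromosome of each replicate's peaks that overlap no combined peak (262.4 and 209.3 per Mb). In 8 of the 12 stretches both bars lie below their line and in 2 both lie above it; the stretches were chosen for their lack of combined peaks.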

How the data were processed

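NHR-2 tagged with GFP was mapped by ChIP-seq in 2 ChIP samples, with 2 input samples. The authors deposited 3 peak lists, 1 per ChIP sample and 1 combined, on WormBase WS220 per the file headers. The source column names SPP with the irreproducible discovery rate. For the aligner, versions, thresholds and making of the combined list, nothing is stated by labels or headers. The score of each peak is as deposited by the authors, with no stated scale, so peaks were ordered by the deposited peak number. Ties at the highest score hide differences of score among strong peaks. Read depth is unknown.

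From these lists overlaps (at least 1 bp), clusters (centres within 10 kb), arms (the outer 25% of the length at each end) and empty stretches were counted. The length of a chromosome was the end of its last peak in any list. To set replicates beside the combined list, their peaks numbered up to 2299 were used. Intervals are exact Clopper-Pearson 95% intervals. No test of significance was run, since peaks of 1 sample are not replicates. Named were the 10 strongest peaks, clusters of at least 5, the 5 longest empty stretches, peaks lacking in 1 replicate and the 5 strongest left-out peaks of each replicate. Other regions were named after their values were seen. The members, lists and measures were chosen with earlier results of these data known. Overlap counts and clusters were checked on 20 simulated lists each, and all matched bedtools 2.31.1 or the planted clusters. Figures were drawn with matplotlib 3.10.9, and counts were made with pandas 2.3.3, scipy 1.17.1 and numpy 2.4.6 under Python 3.11.15.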

Additional observations from a re-analysis of the deposited data

How the results depend on the processing

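Of 29 alternatives, 16 moved a chromosome II value by less than its counting interval or, for the ratio and the longest stretch, 1 SD between replicates, and 13 moved it further. The share of combined peaks overlapped by replicate 1 and replicate 2 was 92.8% and 85.4% with a reciprocal overlap of 50%, 81.4% and 75.9% with replicate lists limited to 2299 peaks, where weak matches drop out by construction, and 100% for both in the stronger 50% of the combined list. The share of peaks in clusters of at least 3 was 31.6% with centres within 5 kb and 52.0% within 20 kb, as the rule itself implies. The density in the middle 50% was 1.48 times that of the arms, and 1.40 times with the middle 33.3% set against the rest. With 1 replicate left out, values come from the strongest 2299 peaks of the remaining library, as no new combined list could be made. This ratio was then 1.27 to 1.37, both above 1, and the longest empty stretch 394.0 to 432.8 kb. In the stronger 50% of the combined list the longest stretch was 715.8 kb, since fewer peaks leave longer gaps. The right to left ratio of the arms was not recomputed with other arm borders. The share of nuclear peaks on chromosome II (15.1 to 16.3%) and that of the middle 50% (55.3 to 61.8%) stayed inside the intervals of the values reported. No paired analysis was possible because no values of input samples were analysed here. Why the 2 replicate lists differ in length was not tested, and their depth is unknown.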
